A study of Mus musculus with 9 samples.

Results

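The insertion sites described here are the called Sleeping Beauty (SB) insertion sites on mouse chromosome 13, the chromosome that carries Ptch1. They were selected on position and on read counts. For each tumour the counts from both SB ends were summed, positions within 10 bp were merged, and a called site needed 10 counts or more and no less than 1% of the counts of the highest site in its tumour. This rule gave 240 sites on chromosome 13 of 2311 called SB sites in all (10.4%). They came from 94 of 119 tumours. Because the rule used the chromosome and the SB counts, how these sites compare with other chromosomes in number, density and count share is a description, with no test. The arm, the donor, the gene part and the other kinds of library did not enter the rule, and tests are given against these. The other kinds of library read the same elements, so their tests against chromosome length do not stand apart from the rule. The presence of both SB ends was also tested, although it was read from the counts that the rule summed. Recurrence in windows was tested too, and in IR these are the windows from which the members were drawn. All coordinates are in mm9.

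The series profiled SHH medulloblastomas of mice that carry Lazy Piggy, a mobile element that combines SB and piggyBac (PB) parts. It asked which genes maintain these tumours, by comparing mice treated with tamoxifen (72 animals) and mice left untreated (47 animals). Each tumour had IR libraries, amplified from the SB ends, JX libraries, amplified from the boundary of the SB and PB parts, and PB libraries. All animals share the genotype label lazy_piggy and the tissue label. The labels state no allele of Ptch1, no promoter for the transposases, no strain and no age. The sample sheet lists the chromosome that held the transposon array at the start, the donor, as 10 in 90 animals and as 7 in 29, so chromosome 13 was a donor in none. IR counts per animal had a median of 3115243 with tamoxifen (295999 to 6337624) and 3143569 without (1236372 to 5553180). JX counts had medians of 441808 with tamoxifen and 287429 without, so the JX comparison of arms is between unequal depths, and PB counts had medians of 204964 and 216967. The count of reads carries no molecular identifiers, so a site is described by its share of the animal's IR counts and not by counting error.

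Ptch1 encodes the receptor that binds Sonic hedgehog and, without ligand, holds Smoothened inactive. Loss of Ptch1 releases Smoothened and the GLI transcription factors, drives the proliferation of cerebellar granule neuron precursors, and is a founding event of SHH medulloblastoma in mice and people. SB elements land at TA dinucleotides and often move to nearby positions on the donor chromosome, which is known as local hopping.

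Chromosome 13 held more called IR sites for its length than any other of the 20 chromosomes counted. Rates were taken over animals for which the chromosome was not the donor. Chromosome 13 had 1.68 IR sites per Mb of covered length per 100 animals, against 0.523 on all other chromosomes together, a ratio of 3.21. The next highest rate was 0.769 on chromosome 10 (in the animals with donor 7), and the lowest was 0.207 on the X chromosome. Sites on chromosome 13 were found in 94 animals, while the next most widely hit chromosomes, 1 and 2, had sites in 50 animals each.

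**Figure D1:**
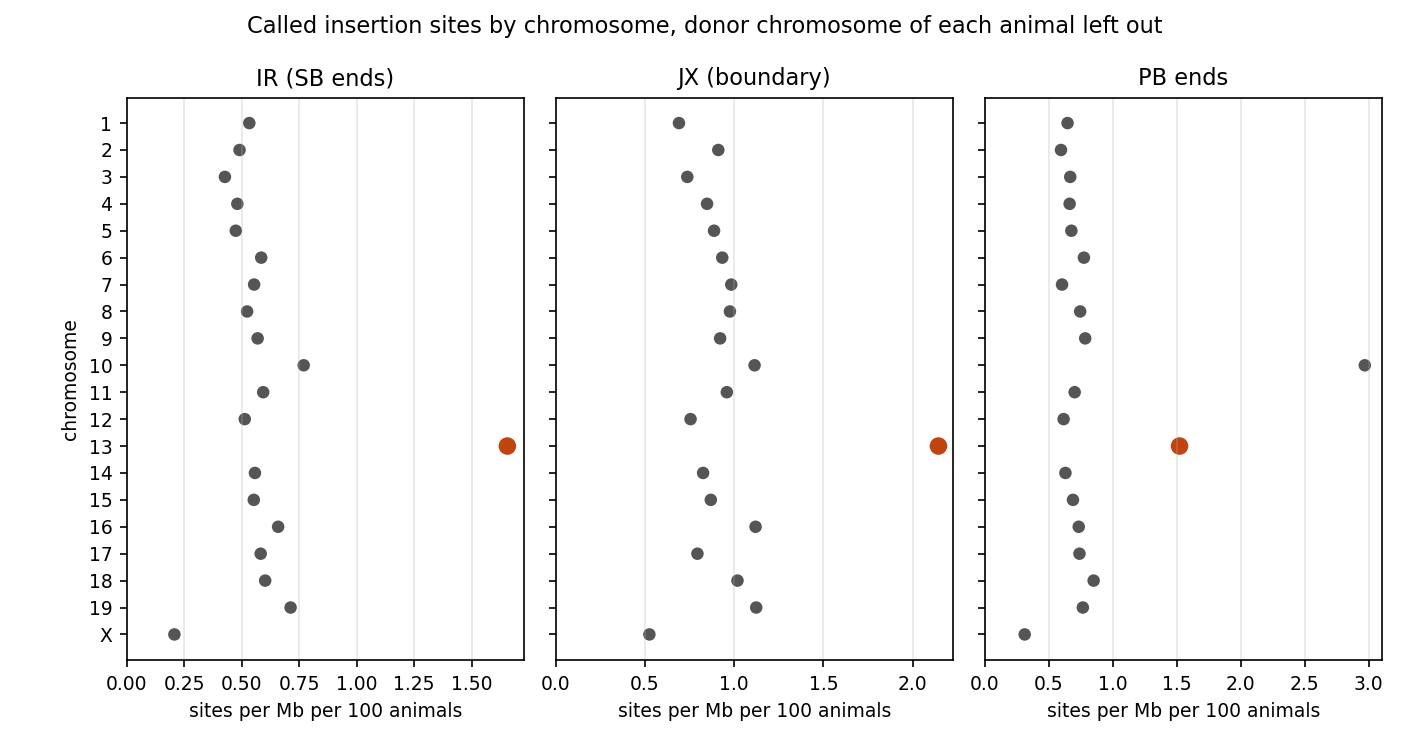
Called sites per Mb per 100 animals (x axis) on each chromosome (y axis), in IR, JX and PB libraries, leaving out the donor chromosome of each animal and positions whose counts were spread over animals. The larger orange point is chromosome 13, which stood at 1.66 in IR and 2.14 in JX, the highest of the panel, and at 1.52 in PB, below chromosome 10 at 2.97.

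The JX and PB libraries were not used to choose the sites, but they read the same elements of the same tumours and are therefore not independent samples. The JX libraries gave 445 called sites on chromosome 13 and the PB libraries 220. On average, chromosome 13 held 14.6% ± 19.1 (SD, n = 119 animals) of an animal's JX sites off the donor chromosome, against 4.80% of the covered length. The share was above that of length in 80 animals. The mean difference of 9.76 percentage points gave p = 1e-05 in a two-sided sign-flip permutation test with 100000 resamples, the smallest p they can give, and the same value after Benjamini-Hochberg adjustment over JX and PB. In PB the share was 14.6% ± 18.2 (SD, n = 118), above that of length in 75 animals, and the permutation test gave the same p and adjusted p. The corresponding share in IR was 20.2% ± 18.9 (SD, n = 118), above that of length in 91 animals.

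Of the JX sites on chromosome 13, 138 lay at positions with counts spread over animals, meaning that at least 3 animals listed them and none held over 50% of their counts, while 3 of the 240 IR sites and 2 of the PB sites did. Without such positions the JX rate on chromosome 13 was 2.14 sites per Mb per 100 animals against 0.862 elsewhere, a ratio of 2.49. With them the ratio was 1.67.

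The ratio of chromosome 13 to the other chromosomes exceeded 1 in every lane, arm and donor group. In IR, with spread positions left out, it was 2.91 with tamoxifen and 3.77 without. Animals with donor 10 had a ratio of 3.08 and those with donor 7 had 3.48. The 9 sequencing lanes, without the 7 animals in 2 lanes, gave ratios of 1.82 to 5.36 in IR. The JX ratios ran from 1.53 to 4.29 and the PB ratios from 1.63 to 3.40. Leaving out the 2 animals with the most chromosome 13 sites gave a ratio of 3.70 in IR. Those animals were an untreated tumour with 12 sites (of 91 IR sites) and a treated tumour with 11 (of 334 IR sites, from the lowest IR depth of all, 295999 counts).

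Among animals, 30 had 1 site on chromosome 13, 9 had at least 5, and 25 had none. Sites were found in 58 of 72 animals with tamoxifen (80.6%) and in 36 of 47 without (76.6%). The number of IR sites on chromosome 13 per animal was 2.06 ± 1.77 (SD, n = 72) in the treated arm and 1.96 ± 2.21 (SD, n = 47) in the untreated arm. This difference did not pass a two-sided permutation test with 100000 resamples (p = 0.814, adjusted p = 0.814 over the 3 kinds of library). In JX the animals had 3.53 ± 5.38 and 4.06 ± 5.05 sites (permutation p = 0.602), and in PB 1.68 ± 1.94 and 2.11 ± 2.81 (permutation p = 0.338), each with an adjusted p of 0.814. Both arms overlapped almost fully, and within lanes the mean number in IR was higher with tamoxifen in 5 of 9. This left out the 7 animals sequenced in 2 lanes, and some lanes had only 2 animals in an arm. With the lane as a block, an alternative chosen after seeing the data, no comparison of arms passed either. For some IR sites of lane 4 the JX call stood in another animal. At 9627125 in Dip2c, the IR call was in a treated tumour and the JX call in an untreated one (821 against 5252 JX counts). Beside Gm11351, the IR and PB calls were in 1 untreated tumour and the JX call in another (6191 against 227721 JX counts). The JX results by arm, gene and window rest on these animal labels. How far this moves them was not tested.

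As a share of the animal's called sites, chromosome 13 took 15.1% ± 13.4 with tamoxifen and 12.8% ± 11.8 without in IR (permutation p = 0.352, adjusted p = 0.894). The shares were 10.1% ± 11.6 and 10.1% ± 9.79 in JX (permutation p = 0.998, adjusted p = 0.998), and 9.50% ± 11.4 and 10.6% ± 11.5 in PB (permutation p = 0.596, adjusted p = 0.894). Its called sites held 10.6% ± 15.2 of the IR counts with tamoxifen (median 3.32%, range 0 to 65.6%) and 12.5% ± 17.8 without (median 4.06%, range 0 to 64.6%), and this difference did not pass either (permutation p = 0.530). Within lanes, again without the 7 animals in 2 lanes, the share of counts was higher with tamoxifen in 3 of 9.

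**Figure D2:**
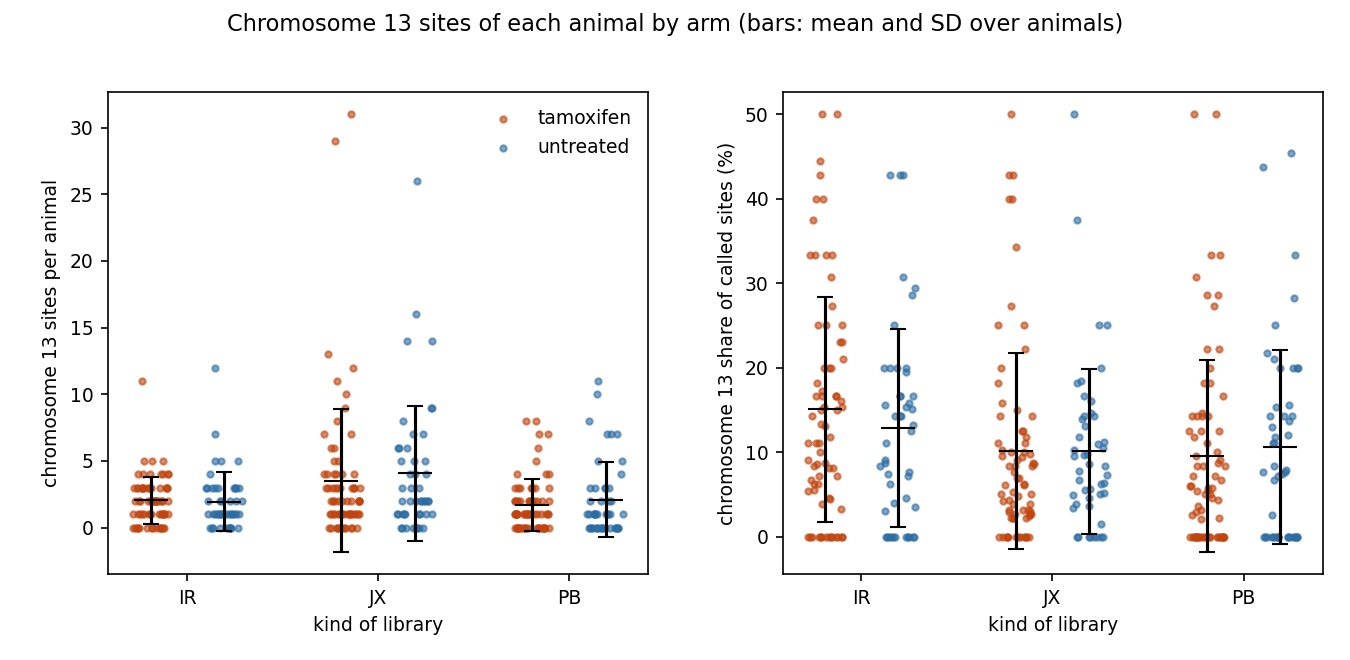
Number of chromosome 13 sites (left) and their share of the animal's called sites in percent (right) for each kind of library on the x axis. Points are animals, orange with tamoxifen (72) and blue untreated (47), and bars are the mean and SD, which in IR are 2.06 ± 1.77 and 1.96 ± 2.21 sites.

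Donor groups did not separate either. Off the donor chromosome, chromosome 13 took 21.1% ± 19.9 of the IR sites in 89 animals with donor 10 and 17.3% ± 15.5 in 29 animals with donor 7 (permutation p = 0.345, adjusted p = 0.345). The PB shares lay furthest apart, at 16.4% ± 19.9 and 9.18% ± 10.3, and did not pass after adjustment (permutation p = 0.0629, adjusted p = 0.189). The JX shares were 16.04% ± 20.6 and 9.94% ± 12.7 (permutation p = 0.136, adjusted p = 0.203).

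Sites were most dense around Ptch1. The segment from 60 to 70 Mb held 57 of the 240 IR sites, in 40 animals, while the other full 10 Mb segments held from 10 to 26. Of the tumours with tamoxifen 26 (36.1%) had a site there, and of the untreated tumours 14 (29.8%). At 47.9 sites per 100 animals it was the highest of 255 such segments of the genome, whose median was 5.04. The next was the neighbouring segment from 70 to 80 Mb, at 21.8. In JX, with spread positions left out, the 60 to 70 Mb segment had 72 sites and was again the highest, at 60.5 per 100 animals against a median of 8.40. In PB it had 41 sites, at 34.5 against a median of 6.72, and was 4th of 255.

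**Figure D3:**
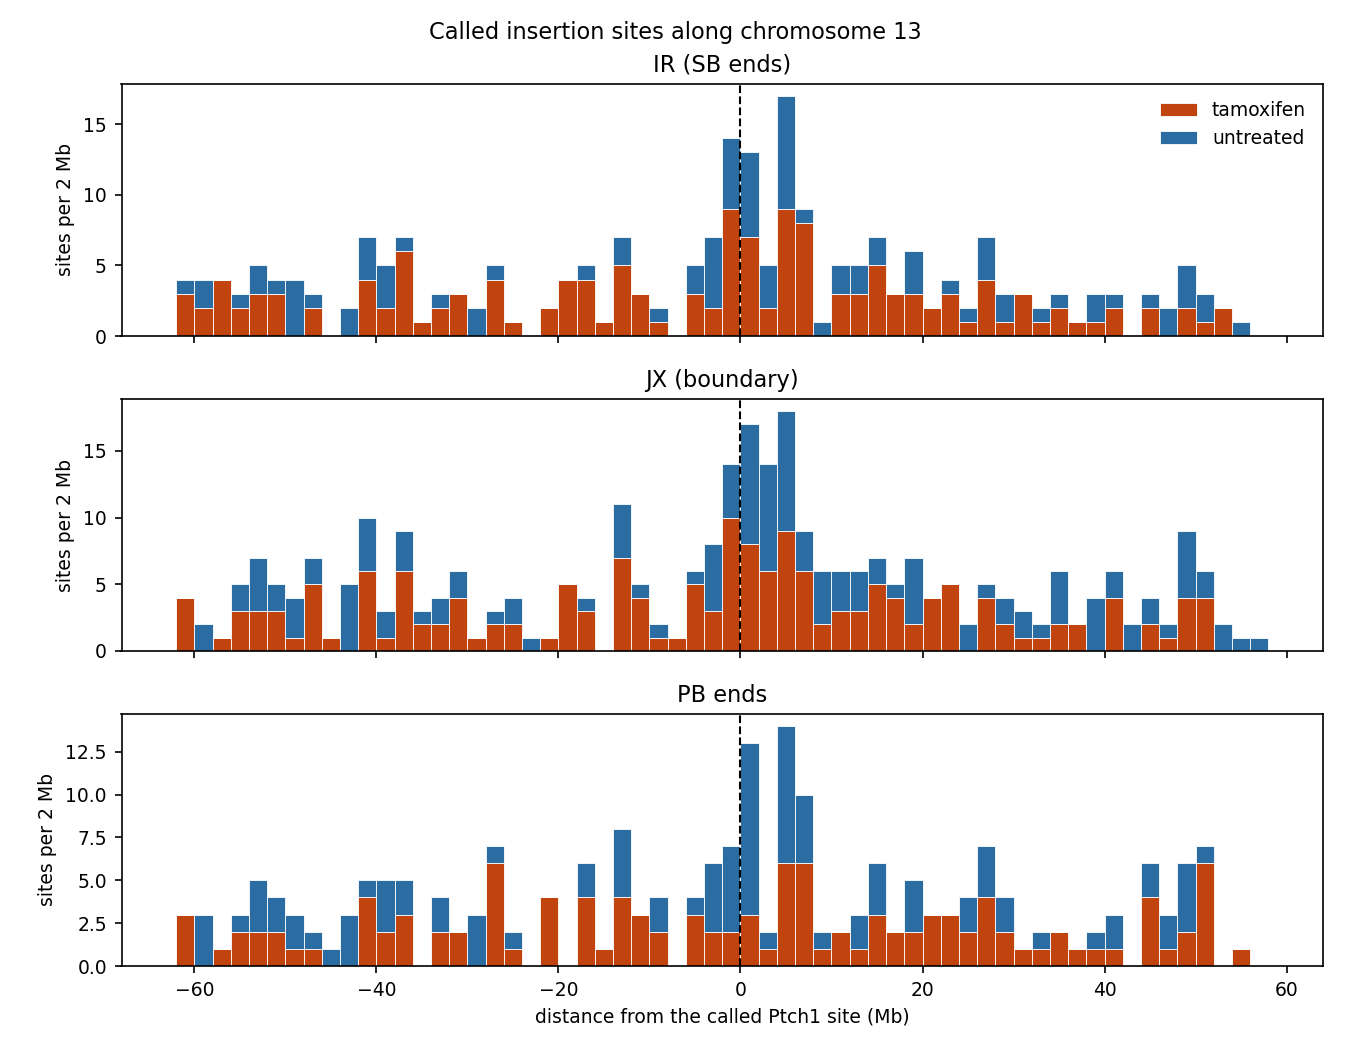
Called sites per 2 Mb (y axis) by distance in Mb from the called Ptch1 site, marked by the dashed line (x axis), in IR, JX and PB libraries without positions spread over animals, with treated tumours in orange and untreated tumours in blue. In all 3 panels the highest bar lies 4 to 6 Mb beyond the Ptch1 site, with 9 treated and 8 untreated sites for IR, 9 and 9 for JX, and 6 and 8 for PB.

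By distance from the called Ptch1 site, IR sites numbered 8 per Mb in the last 1 Mb before it, 3 per Mb in the first 1 Mb after it, and 6 per Mb from 1 to 5 Mb after it. From 5 to 1 Mb before it there were 3.25 per Mb, and from 5 to 10 Mb after it 3.40. Further than 10 Mb away the density was 1.74 per Mb on the side of lower coordinates and 1.63 on the other. The JX sites, spread positions left out, numbered 9, 8 and 8.25 per Mb in the first 3 of these intervals, and the PB sites 6, 5 and 4. The rate was also higher outside this region. Without the segment from 60 to 70 Mb chromosome 13 still had 1.37 IR sites per Mb per 100 animals, 2.64 times the rate elsewhere, and without 60 to 80 Mb it had 1.29, or 2.48 times. The corresponding ratios without 60 to 80 Mb were 1.97 in JX and 1.86 in PB.

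Ptch1 itself held 1 of the 240 sites. It lay at chr13:63617312, in intron 20, where the table marks the coding sequence as disrupted. The site came from an untreated tumour with donor 10 and held 5109 counts, 3649 from the left and 1460 from the right SB end, which was 0.142% of the animal's IR counts and rank 31 of its 33 called IR sites. JX and PB libraries listed for the same tumour had 9 and 314 counts within 100 bp, too few for a call there. The most JX counts over all positions listed under Ptch1 (514) were in another untreated tumour, with 0 IR and 3 JX calls on chromosome 13. That tumour also held the JX call at an IR site of the first tumour, in Mrs2 (2399 against 471 JX counts). Whether the JX library listed for the first tumour is its own was not tested. The tumour with the called Ptch1 site had a larger site 326 kb away, in exon 6 of 0610007P08Rik at 63943291 (6.23% of IR counts). This was the nearest called site on the side of higher coordinates. The nearest on the other side lay 278 kb away in intron 10 of 2010111I01Rik at 63339209, in a treated tumour (0.354%). Apart from the called site, IR positions listed under Ptch1 occurred in 67 animals with 13562 counts in all, and in sum held at most 0.130% of an animal's IR counts, in a treated tumour. JX positions listed under Ptch1 occurred in 32 animals and PB positions in 25, and none was called.

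The other hedgehog pathway genes on the chromosome are Gli3, a transcription factor that mainly acts as a repressor of the pathway when ligand is absent, and Gas1, a membrane-anchored co-receptor for the ligand. Gli3 was hit in 2 tumours. An untreated tumour had its highest site at 15669141 in intron 3 (1548591 counts, 43.9% of IR counts), and its JX and PB libraries called the same place with 22100 counts (8.41%) and 40240 counts (9.89%). A treated tumour had a site 33.9 kb beyond the 3′ end of Gli3 at 15855776 (1.02%). JX called sites of Gli3 in 4 animals, of which 2 had no called IR site in the gene. Gas1 had no called site in IR, JX or PB, although IR positions listed under it occurred in 47 animals, with at most 0.145% of an animal's IR counts. Of 38 hedgehog pathway genes of the whole genome that the table lists, 7 had a called IR site (Btrc, Gli2, Gli3, Gsk3b, Hhip, Ptch1 and Smo), or 18.4%. For comparison, 125 of 831 symbols listed on chromosome 13 had one (15.04%), and 1417 of 22353 symbols in all (6.34%). The pathway list was chosen with earlier results of these data known, so these shares are a description.

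Sites on chromosome 13 included many that made up a large part of a tumour's IR counts. Their share of the IR counts ranged from 0.0533% to 64.6%, with a median of 1.06%, against a median of 0.597% for the 1482 sites on other chromosomes that were not the donor and 0.695% for the 583 sites on the donor. Above 10% lay 43 of the 240 sites (17.9%), against 11.2% of sites on the other chromosomes. These values pool sites over animals. The treated tumour with the lowest IR depth alone gave 288 sites off its donor chromosome, of which 11 were on chromosome 13. How far that tumour moves the comparison was not tested. A chromosome 13 site was the highest site of the tumour in 17 animals, 9 with tamoxifen and 8 without, the most of any chromosome apart from the donor. Among these were Foxf2 sites of a treated tumour (35.6%) and an untreated tumour (22.4%), at positions listed in 111 and 118 animals. They also count among the sites above 10%. The median share of the chromosome 13 sites was 0.860% in treated and 1.30% in untreated tumours.

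**Figure D4:**
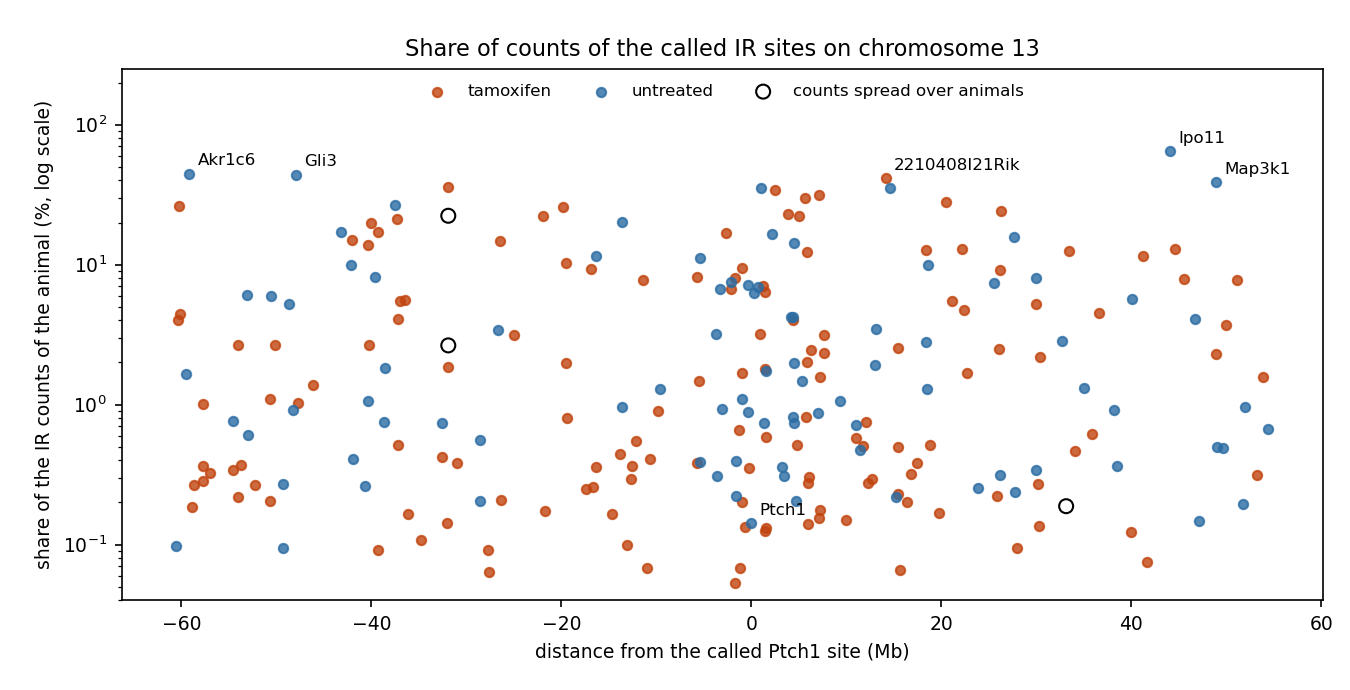
Share of the animal's IR counts in percent (y axis, log scale) of each called chromosome 13 site, by distance in Mb from the called Ptch1 site (x axis), with treated tumours in orange, untreated tumours in blue and the 3 sites with counts spread over animals as open circles. The site in Ptch1 stands at 0.142%, and the 4 sites above 40% lie over 10 Mb from it.

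The 4 sites with over 40% of a tumour's IR counts came from 4 tumours. The highest was in intron 13 of Ipo11, which encodes a nuclear import receptor, in an untreated tumour (64.6%, position 107675005), near which the PB library had 65.5% of its counts. An untreated tumour had a site 7.63 kb beyond the 3′ end of Akr1c6, which encodes an aldo-keto reductase (44.8%, position 4464406), with 64.8% of its PB counts at the same place. The Gli3 site described above followed. A treated tumour had a site in intron 19 of 2210408I21Rik (41.3%, position 77750868), with 48.5% of its PB counts there. The JX libraries called all 4 sites at the same positions, with 1.36% of JX counts at Ipo11, 5.79% at Akr1c6 and 3.28% at 2210408I21Rik. The PB calls lay within 100 bp of the IR position, except at Ipo11, where the PB call was at 107675159.

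The other 6 of the 10 highest sites held between 31.4% and 38.7%. Map3k1, which encodes a kinase upstream of JNK and ERK signalling, carried a site in exon 11 in an untreated tumour (38.7%, position 112548372), with 39.6% of the PB counts. A site in exon 1 of Foxf2 held 35.6% in a treated tumour. Its position was listed in 111 animals and called in 8, and this tumour held 63.7% of all counts there. Untreated tumours had a site 21.2 kb from the 5′ end of 1190003K10Rik (35.2%) and a site in intron 10 of Fam172a (35.1%). Treated tumours had a site 92.3 kb from the 5′ end of Gm10324 (34.4%) and a site 57.1 kb beyond the 3′ end of BC018507 (31.4%). Of these 10 sites, 6 came from untreated tumours and 4 from treated ones.

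At the threshold, the lowest member held 1.003% of the count of its tumour's highest site and the next site below held 0.997%. Between 1 and 2% lay 66 of the members, and a further 114 sites lay between 0.5 and 1% and were not called.

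By the gene part that the table lists, 79 of the 240 sites lay in introns (32.9%), 7 in exons, 45 at the 5′ side and 43 at the 3′ side of the listed gene, and 66 had no listed gene (27.5%). Of the 86 in gene bodies, 70 were marked as disrupting the coding sequence. Sites beside genes lay 0.554 to 489 kb away, with a median of 26.4 kb, and 21 were within 10 kb. The closest site on a 5′ side was 5.32 kb away, beside Zfp934.

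Fewer of the chromosome 13 sites were intronic than of the other sites of the same tumours. In the 94 animals with both kinds, 28.4% ± 34.2 (SD) of an animal's chromosome 13 sites were in introns, against 49.9% ± 23.7 of its IR sites on the other chromosomes that were not the donor. The share was lower on chromosome 13 in 68 animals and higher in 22. The mean difference of -21.5 percentage points gave p = 1e-05 in a two-sided sign-flip permutation test with 100000 resamples, the smallest p they can give, and an adjusted p of 4e-05 over 4 such measures. The listed positions below and above the call differed in the same direction: 36.2% of 88836 IR positions on chromosome 13 were in introns, against 45.6% of 1120389 on the other chromosomes. What part the gene content of the chromosome has in the difference was not tested.

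**Figure D5:**
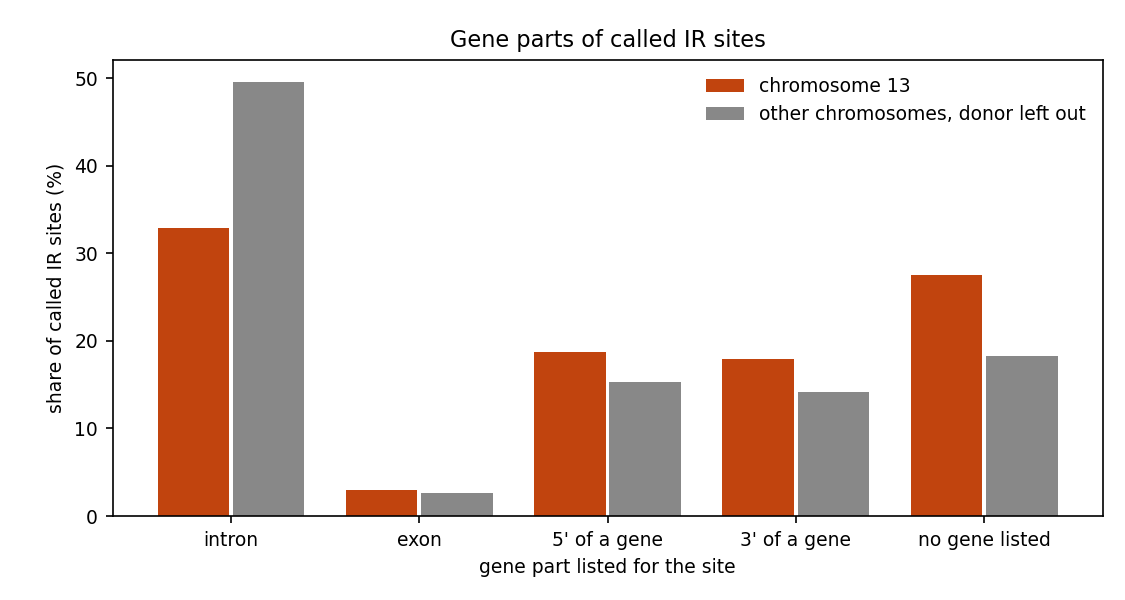
Share of called IR sites in percent (y axis) by listed gene part (x axis), for the 240 sites on chromosome 13 (orange) and the 1482 sites on the other chromosomes with the donor left out (grey). Introns held 32.9% against 49.6%, and 27.5% against 18.3% had no listed gene.

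The other 3 measures did not pass at this site call. An animal had a JX count within 100 bp at 96.9% ± 13.5 of its chromosome 13 sites and at 96.0% ± 13.1 of its other sites (n = 94, permutation p = 0.384, adjusted p = 0.512). For a PB count within 100 bp the shares were 66.6% ± 34.8 and 71.5% ± 23.3 (permutation p = 0.179, adjusted p = 0.359). Counts from both SB ends were present at 93.7% ± 18.8 and 94.8% ± 15.04 (permutation p = 0.581, adjusted p = 0.581). This last measure was read from the counts that the rule summed, so it does not stand apart from the rule. With sites called at 0.1% of the highest site, the difference in JX passed at 6.37 points (adjusted permutation p = 0.012) and that in PB at -5.88 points (adjusted permutation p = 0.0318). When every animal that called a site kept it, the PB difference passed at -8.88 points (adjusted permutation p = 0.0253). Over all 240 sites, 223 had a JX count within 100 bp. The 17 sites without one were small, with a median of 0.156% and at most 0.821% of IR counts.

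The 174 sites with a listed gene fell under 125 symbols, of which 95 were hit in 1 animal, 23 in 2, 5 in 3 and 2 in 4. The 2 genes hit in 4 animals were Foxf2, which encodes a forkhead transcription factor, and Zfp934, a zinc finger gene. The 4 Foxf2 sites lay between 31719092 and 31719262, within 170 bp of each other. They held 35.6% (treated), 2.65% (untreated), 22.4% (untreated) and 1.84% (treated) of IR counts. Positions of the 4 sites were listed in 111, 112, 118 and 20 of 119 animals, and both untreated sites had their counts spread over animals. Before crediting, the 4 sites were called in 8, 6, 12 and 1 animals. Apart from the first 3 of these and a Sv2c site (77 animals), no member lay at a position listed in more than 27 animals.

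Zfp934 was hit in 3 treated tumours, 5.32 kb (1.69% of IR counts), 6.71 kb (0.201%) and 20.8 kb (9.50%) from its 5′ end, and in an untreated tumour in intron 2 (1.11%). The treated tumour with 9.50% had 17.1% of its JX and 17.6% of its PB counts at the same site. Klf6, which encodes a zinc finger transcription factor, was hit in 3 treated tumours only by small sites, in intron 2 (1.01%) and 2.45 kb (0.284%) and 24.9 kb (0.364%) beyond its 3′ end, and JX and PB called no Klf6 site.

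Vcan, which encodes the extracellular matrix proteoglycan versican, was hit in intron 13 (9.19%, treated), exon 7 (0.314%, untreated) and 6.08 kb from its 5′ end (24.2%, treated), where it was the tumour's highest site. BC018507 was hit in 3 treated tumours, at 31.4% in the first, at 0.156% in the next, and by 2 sites of 1.57% and 0.177% in the last, at positions from 70719382 to 70835515. BC048507 was hit from its 3′ side in 2 untreated tumours (4.25% and 0.815%) and a treated one (3.996%), at 13.7, 40.5 and 31.7 kb. Sites listed under 4932441B19Rik came from 2 treated tumours and an untreated one, and held at most 1.81%.

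Among the 23 genes hit in 2 animals, the sites with the most counts lay in Gli3 and Map3k1 (above), Lrrc16a, a regulator of actin filament capping (17.2% and 0.0909%, both treated), Atg10, an autophagy enzyme (15.7% and 0.239%, both untreated), Vmn1r219, a vomeronasal receptor (13.8%, treated, and 1.05%, untreated), Rnf144b, a ubiquitin ligase (11.6%, untreated, and 0.361%, treated) and Klhl3, an adaptor of a ubiquitin ligase (11.2%, untreated, and 1.48%, treated). Thbs4, 2010111I01Rik, Cts7, Edil3, Cntnap3, BC052688 and Mast4 had highest shares from 5.70% to 8.08%. The rest were Dip2c, Exoc2, Gtpbp4, Papd4, Papd7, Pde4d, Prl2c3, Speer6-ps1 and Zfp825, with highest shares from 0.275% to 4.06%.

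Gene groups on the chromosome were described by counts only, because the lists were chosen with earlier results of these data known. Of 15 listed growth signalling genes 3 had an IR site (20%, against 15.04% of all symbols on the chromosome): Map3k1 in 2 animals, Mast4, a kinase gene, in 2 (5.70% and 0.123%), and Il6st, the shared receptor of interleukin 6 family cytokines, in intron 11 in an untreated tumour (0.490%). Of 22 transcription factor genes 4 were hit (18.2%), namely Foxf2 (mostly at positions listed in most animals, as above), Klf6, Zfp934 and Foxq1. The Foxq1 site lay 42.3 kb from its 5′ end (0.143%). None of 17 genes of chromatin, the cell cycle and DNA repair had a called IR site, while JX and PB called 3 of them each (17.6%), against 24.4% and 15.8% of all symbols on the chromosome. Of the 6 JX sites in that group 5 had counts spread over animals.

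Of 21 genes on the list named neuronal, 9 were hit in IR (42.9%), against the 15.04% of all symbols on the chromosome. The list also holds extracellular matrix genes. It was chosen with earlier results of these data known, so its share of hit genes is a description only. Many genes of this list are long, and gene lengths in mm9 were not used here. The 9 were Vcan (above), Hapln1, which links versican to hyaluronan (intron 1, 2.49%), Edil3, an extracellular matrix protein (7.35% and 0.223%), Arl15, a small GTPase (intron 4, 7.81%), Pde4d, a cAMP phosphodiesterase (4.06% and 0.149%), Adcy2, an adenylyl cyclase (intron 3, 1.48%), Mctp1, a membrane protein with calcium-binding C2 domains (3.45% and 1.93%, both in 1 tumour), Map1b, a microtubule-associated protein listed as Mtap1b (intron 2, 4.48%), and Sv2c, a synaptic vesicle protein. The Sv2c site (0.188%) was at a position listed in 77 animals, with its counts spread over them. JX called sites in 13 of the 21 genes (61.9%, against 24.4% of all symbols on the chromosome) and PB in 11 (52.4%, against 15.8%).

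No gene of chromosome 13 passed a test between arms, and none could have passed it alone, since few animals shared a gene. Fisher's exact test, two-sided, was run on genes hit in at least 3 animals with adjustment over every gene of that kind of library. On chromosome 13 this covered 7 genes for IR, 25 for JX and 5 for PB. None (0) passed, as did 0 of the 40, 244 and 55 genes tested in the genome (0%). At an unadjusted p under 0.05 there were 0, 1 and 0 genes on chromosome 13, and 0, 2 and 1 in the genome. A gene hit in 3 animals can reach an exact p of 0.0592 at the lowest, in 4 animals 0.0225 and in 5 animals 0.00840, and on chromosome 13 no IR gene was hit in more than 4 animals, no JX gene in more than 5 and no tested PB gene in more than 3. The result is therefore no sign that the arms are alike. The chromosome 13 gene under 0.05 was Mctp1 in JX, hit in 0 treated and 4 untreated tumours (Fisher's exact p = 0.0225, adjusted p = 1), where 2 of the 5 sites had counts spread over animals. Adcy2 had the lowest p in PB, with 0 and 3 tumours (exact p = 0.0592, adjusted p = 0.846). Klf6 and BC018507 had the lowest in IR, each with 3 and 0 (exact p = 0.277, adjusted p = 0.739). In JX, BC052688, Sema4d and Zfp934 were each hit in 3 treated tumours and 0 untreated (exact p = 0.277, adjusted p = 1), and Foxf2 in 2 and 3 (exact p = 0.382, adjusted p = 1). In PB, BC048507, Pde4d and Rnf144b were each hit in 1 treated and 2 untreated tumours (exact p = 0.561, adjusted p = 1), and BC018507 in 2 and 1 (exact p = 1).

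Recurrence was examined in 100 kb windows, off the donor chromosome, by an exact Poisson-binomial test, one-sided, with the number of sites per animal given, adjusted over 26427 windows, of which 1203 lie on chromosome 13. In IR 0 windows on chromosome 13 passed with tamoxifen (0.00378% of all windows did) and 0 without (0%). At an unadjusted p under 0.05 there were 126 and 82, of 1071 and 529 in the genome. The windows of Klf6 and Zfp934, each with 3 treated tumours, came closest (exact p = 1.26e-05, adjusted p = 0.0833). Without the tumour with the most IR sites both passed the same exact test (adjusted p = 0.0409). The IR windows are those from which the members were drawn, so these IR values are a description and give no support for recurrence. In JX 0 windows passed with tamoxifen (background 0.00378%) and 1 passed without (background 0.00757%), at 68100001 to 68200000, with 4 untreated tumours (exact test, adjusted p = 0.0154). It no longer passed with sites called at 0.1% or 5% of the highest site or in windows of 250 kb, where 0 windows passed. At an unadjusted p under 0.05 there were 32 JX windows with tamoxifen and 18 without, of 331 and 135 in the genome. No gene is listed at the IR sites in that window, which came from 2 untreated tumours (0.740% and 1.99% in the first, 14.3% in the second). In PB 0 windows passed in both arms (background 0%), with 4 and 79 at an unadjusted p under 0.05, of 171 and 614 in the genome. In IR, and in PB without tamoxifen, a site in 1 tumour was enough for an unadjusted p under 0.05. In JX, and in PB with tamoxifen, 2 tumours were needed. The counts at an unadjusted p under 0.05 are therefore no measure of recurrence and do not compare arms or kinds of library. The test takes sites to be uniform over the genome, so the higher rate of the whole chromosome enters every one of its windows.

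Some sites may not be separate insertions. Of the 240 members, 8 lay within 1000 bp of another member of the same animal, and 6 within 300 bp, such as the sites at 14359596 and 14359713 in Hecw1. On chromosome 13, 15 members were called in over 1 animal before crediting, among them Foxf2 sites called in 8, 6 and 12 animals. Another 12 of the 15 were called in exactly 2 animals and credited to the one with the higher share. In all 12 both animals shared a lane, and the second animal held from 0.553% to 1.38% of the counts of both (median 1.11%). In 235 of the 240 members the credited animal held over 90% of all counts at the position. The listed orientation of the insertion was not used, because the SB ends gave opposite orientations at 77 of 130 sites in which each end had at least 10 counts.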

How the data were processed

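Tumour DNA was fragmented, splinkerette adaptors were ligated, BamHI digestion followed, and transposon junctions were amplified and sequenced in 9 lanes, per the labels' protocols. The deposited table holds raw counts per insertion position and library, made by the authors, with a listed gene and gene part. Per the submitters' processing notes, coordinates are those of mm9. For the aligner and filters, the sources used here state nothing. Arm, animal and donor came from the authors' sample sheet, and the animal was the replicate. Each animal is a separate tumour by its ID, and an ID spelled in 2 ways was joined. The 5 control tumours, 8 tumours with no usable arm and 9 control DNAs entered no comparison.

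Sites were called per animal as described in the report. Where several animals called a site, the one with the highest share kept it (275 before and 240 after crediting on chromosome 13). Symbols are those of the table, and 3 list symbols it lacks were matched through synonyms (GRCm38.p6 gene names). The genes named were Ptch1, Gli3 and Gas1, genes hit in at least 2 animals, those of the 10 highest sites, the neighbours of Ptch1, the 5 lowest Fisher p-values per kind of library, and hit members of the lists. Members, tests and lists were chosen with earlier results of these data known. Permutation, sign-flip, Fisher and Poisson-binomial tests were run in Python 3.11.15 with numpy 2.4.6, pandas 2.3.3 and scipy 1.17.1. All but the sign-flip test were checked on simulated called sites. Adjusted p-values follow Benjamini-Hochberg, with a threshold of 0.05. Alternatives changed the site call, count minimum, merging distance, crediting, spread positions, window size, donor rule, lane block and the animal with the most sites.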

Additional observations from a re-analysis of the deposited data

Results flagged for a closer look

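Called chromosome 13 IR sites also appeared in tumours that entered no comparison. The 8 tumours with no usable arm had 33 such sites, of which 28 were shared with none of the 119 compared tumours. A single tumour held 15 of them, from only 247817 IR counts, and another had a site with 79.3% of its IR counts. The 5 control tumours had 39, of which 31 were shared with none of the compared tumours, and 24 of the 31 came from 1 tumour with 253248 IR counts. Among the 9 control DNAs, 17 chromosome 13 sites were called, 16 of them shared with no compared tumour, and 11 came from 1 DNA. Some of the tumours with no usable arm have conflicting arms in the sample sheet. All these samples stand outside the comparison of arms, so these values are a description.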

How the results depend on the processing

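Of 248 recomputed values, 215 kept their direction and their side of the threshold or their size. The higher JX and PB share of chromosome 13 and its lower share of intronic sites did so in every alternative run. No comparison of arms passed under any alternative, and the signs of their small differences turned (treated minus untreated). With the call at 0.1% of the highest site the share of sites differed by -1.02 points in IR, 0.0684 in JX and 0.228 in PB. In JX it was 0.144 with at least 50 counts, 1.15 without spread positions, 0.571 when every animal that called a site kept it, 0.0668 without the animal with the most IR sites, and 0.0682 with positions within 1000 bp merged, an alternative chosen after seeing the data, under which PB gave 0.413. Sites per animal in IR differed by -0.164 at a 5% call and by -0.0279 without that animal, and in JX by 0.0460 with the lane as a block, also chosen after seeing the data. Chromosome 13 minus other sites with both SB ends was 0.760 points at a 0.1% call and 1.20 at 5%. The share with a JX count nearby then passed at a 0.1% call (6.37 points, adjusted permutation p = 0.012), as did that with a PB count nearby (-5.88, adjusted permutation p = 0.0318), the latter also when every animal kept its sites (-8.88, adjusted permutation p = 0.0253).

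The number of members was 1220 at a 0.1% call and 130 at 5%. Windows passing in IR with tamoxifen numbered 1 at 0.1%, 1 with every animal kept, 2 without the animal with the most sites, 2 at 50 kb, 1 at 250 kb and 2 with the donor kept. In JX without tamoxifen they numbered 0 at 0.1%, at 5% and at 250 kb. With every animal kept, JX had 36 windows with and 35 without tamoxifen, IR 1 without, and PB 1 in each arm. The cause was not tested. No paired analysis was possible because the labels give no numbers that pair treated with untreated animals; within-animal comparisons were paired by animal. The compared tumour with the lowest IR depth (295999 counts) had the most called IR sites, 334.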
